A study of Mus musculus with 8 samples.

Results

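Linker histone H1 genes were measured in round spermatids, the haploid germ cells between meiosis and elongation, of BrdtΔBD1 mutant and control mice. The members were all probe sets of the array that the platform annotation assigns to 1 gene with a current or earlier linker histone symbol. There were 10 of them among 45037 tested probe sets, and they belong to 7 of 11 linker histone genes. H1f2 has 3 probe sets, H1f7 has 2, and H1f4, H1f6, H1f8, H1f10 and Hils1 have 1 each. H1f0, H1f1, H1f3 and H1f5 were not analysed here. Each group had 4 arrays, and each array held RNA of purified round spermatids pooled from 7 adult animals aged 2 to 4 months, of strain 129 Sv/Ev. The BrdtΔBD1 allele removes the first of the 2 acetyl-lysine-binding bromodomains of BRDT, a chromatin protein of male germ cells. Whether the mutants were homozygous, and what allele the controls carried, is not stated in the labels. Cells were separated on a bovine serum albumin gradient and their purity was judged by propidium iodide staining, for which no value is given.

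Linker histones bind the outside of the nucleosome where DNA enters and leaves, and help to compact chromatin. H1f2 and H1f4 encode somatic linker histones that are made mainly during DNA replication. H1f6 encodes H1t, a testis variant that appears in meiotic spermatocytes. H1f7 encodes H1T2, a spermatid variant needed for normal nuclear condensation, and Hils1 a linker-histone-like protein of spermatids. H1f10 encodes a divergent variant of many tissues, and H1f8 the oocyte variant. In spermatids most histones are later replaced by transition proteins and then by protamines, and BRDT takes part in that reorganisation by binding acetylated histone H4.

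Promoters are shown because H1f6, the member with the clearest difference below, lies in the histone cluster on chromosome 13 beside H1f2 and H1f4, whereas H1f7 and Hils1 lie elsewhere. Each line gives the 130 bases before the RefSeq gene start (assembly GRCm38.p6), read 5′ to 3′ on the gene's strand. The windows are chr13:23695681-23695810 (plus strand) for H1f6, chr13:23738677-23738806 (plus) for H1f2 and chr13:23622559-23622688 (minus) for H1f4. They are chr15:98257308-98257437 (minus) for H1f7 and chr11:94967463-94967592 (plus) for Hils1. Capitals mark any match on either strand to the H1 box AAACACA, the CCAAT box CCAAT and the TATA box TATANA, whose matches may overlap one another.
H1f6: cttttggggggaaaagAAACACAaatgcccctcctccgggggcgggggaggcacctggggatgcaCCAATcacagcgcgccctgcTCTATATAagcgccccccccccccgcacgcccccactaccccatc
H1f2: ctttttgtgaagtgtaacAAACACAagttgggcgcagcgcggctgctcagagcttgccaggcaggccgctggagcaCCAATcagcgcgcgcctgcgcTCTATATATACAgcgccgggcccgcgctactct
H1f4: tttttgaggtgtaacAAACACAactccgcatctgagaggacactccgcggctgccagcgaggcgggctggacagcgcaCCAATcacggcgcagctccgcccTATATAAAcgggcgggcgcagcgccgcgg
H1f7: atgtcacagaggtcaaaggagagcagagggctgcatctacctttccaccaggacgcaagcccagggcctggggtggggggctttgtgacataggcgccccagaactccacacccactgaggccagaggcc
Hils1: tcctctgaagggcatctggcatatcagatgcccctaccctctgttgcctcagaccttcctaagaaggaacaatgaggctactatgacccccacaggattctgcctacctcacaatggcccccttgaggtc
H1f6, H1f2 and H1f4 held all 3 motifs. Their H1 box began 114, 112 and 115 bases before the gene start, and their CCAAT box 65, 54 and 52 bases before it. The windows of H1f7 and Hils1 held none of the 3. Among 32851 promoters of this length, 2.98% held the H1 box, 22.4% the CCAAT box, 11.8% the TATA box, and 0.149% all 3. These matches describe letters in a window and are not binding sites measured here.

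Values are log2 intensities, normalized by the authors, with a median of at most 3.14 on every array. Intensities of different probe sets depend on their probes, so no order of levels between genes is given. Arrays correlated with r between 0.970 and 0.994 over all probe sets. On control arrays 1 and 3 signal at the 3′ end of the Gapdh transcript exceeded that at its 5′ end, a sign of RNA quality, by 1.68 and 2.05 (log2), and by 0.33 to 0.94 on the other 6 arrays. Where leaving out both of these arrays ended a call or moved a linker histone difference by over 1.5 times, the value or the count of calls left is given. Brdt itself read 10.67 ± 0.33 in mutant and 12.08 ± 0.25 in control arrays (SD, n = 4 each) by its brightest probe set, and where that probe set lies relative to the deletion is not known here. In such bulk samples, fewer cells of a type and less RNA per cell cannot be told apart.

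Mutant and control arrays differed most clearly in H1f6, at a low signal, while the bright probe sets of the spermatid variants H1f7 and Hils1 had small differences that did not pass the test. The somatic H1f2 was higher in mutant arrays by 2 of its 3 probe sets, without passing. Of the 10 probe sets, 0 passed an adjusted p of 0.05 in limma over all probe sets, where 1.42% of all probe sets did. At an unadjusted p under 0.05 there were 2 of the 10, against 15.1% of all. With the replicate number as a block 1 of the 10 passed, H1f6, against 6.43% of all. In limma over 18193 genes, each read by its brightest probe set, H1f6 was the 1 of 7 linker histone genes that passed, against 3.71% of all genes (1.86% rose and 1.85% fell). With the block it was again 1 of 7, against 11.5% of all genes, of which 6.6% rose and 4.94% fell. The median log2 difference was 0.21 over the 10 probe sets and -0.03 over all probe sets.

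**Figure D1:**
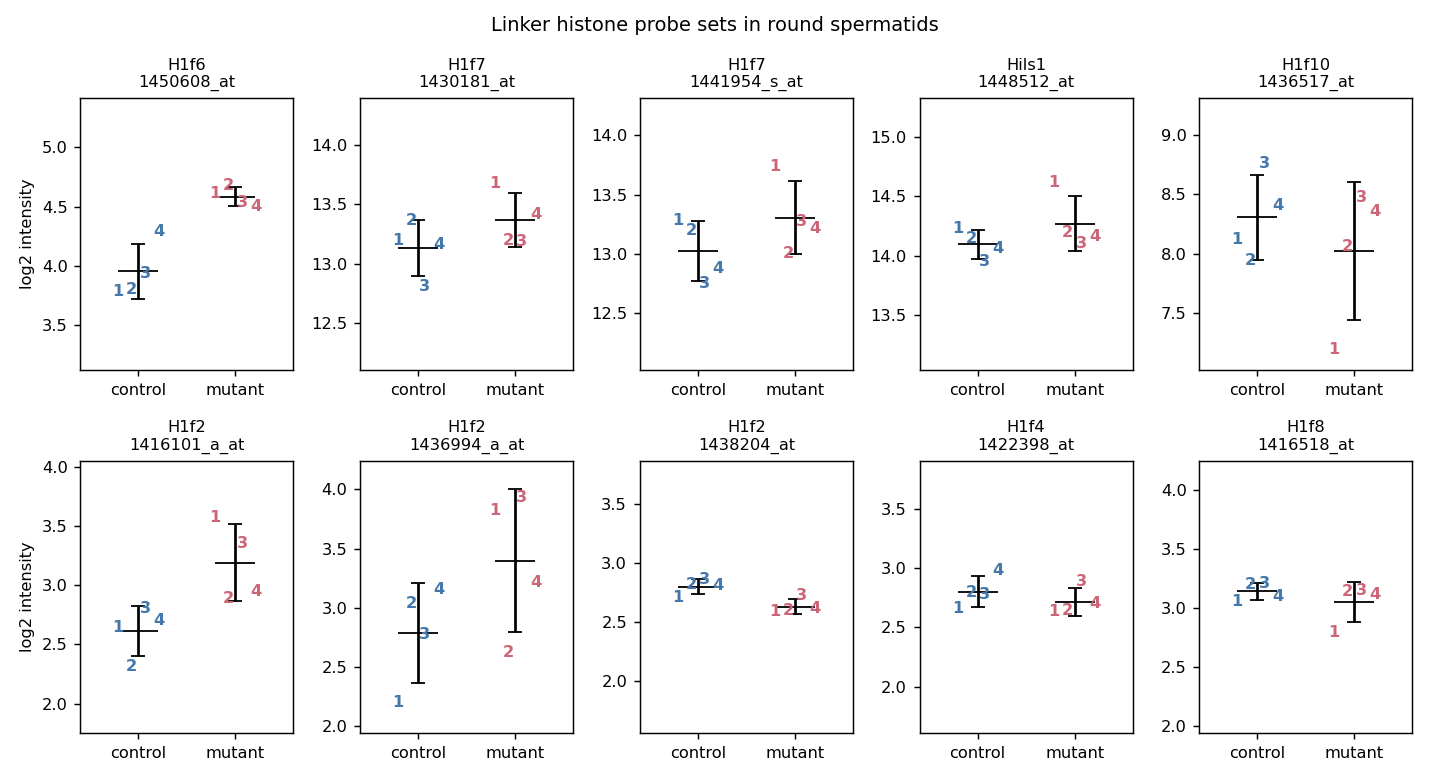
Log2 intensity of the 10 linker histone probe sets, 1 panel each, in control (blue) and mutant (red) round spermatids. Numerals are the arrays by replicate number, spread sideways for legibility, and bars give mean ± SD (n = 4). All panels span the same log2 range. Groups did not overlap for H1f6, where mutant arrays lie between 4.50 and 4.68 and control arrays between 3.79 and 4.29, and for H1f2 by probe set 1416101_a_at.

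H1f6, the meiotic testis variant, read 4.61, 4.68, 4.54 and 4.50 on mutant arrays 1 to 4. On control arrays 1 to 4 it read 3.79, 3.80, 3.94 and 4.29. All mutant arrays lay above all control arrays, with control array 4 nearest to them. The mutant mean was 4.58 ± 0.08 and the control mean 3.95 ± 0.23 (SD, n = 4), a 1.55-fold difference with a 95% interval of 1.27 to 1.89. The adjusted p was 0.041 over genes and 0.055 over probe sets (limma). With the replicate number as a block it was 0.039 and 0.046, so that H1f6 rose by either reading. The difference within pairs of arrays of the same number was 0.82, 0.88, 0.60 and 0.21 on the log2 scale, positive in 4 of 4.

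The size of the H1f6 difference varied less than its call. It lay between 0.47 and 0.74 (log2) over 17 alternatives of the fit over genes, and the adjusted p between 0.027 and 0.40. When 1 array was left out, H1f6 passed in 1 of 8 fits, that without control array 4 (adjusted p = 0.030). In the other 7 the adjusted p ran from 0.057 without mutant array 2 to 0.11 without mutant array 3. Without both control arrays 1 and 3 the difference was 0.54 (SE 0.17, adjusted p = 0.25). A second quantile normalization brought it to 0.47 (adjusted p = 0.11), and variances modelled with a trend left it at 0.63 (adjusted p = 0.082). Its control mean was 0.84 above the mean array median, a dim signal, and whether processing compressed it was not tested.

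**Figure D2:**
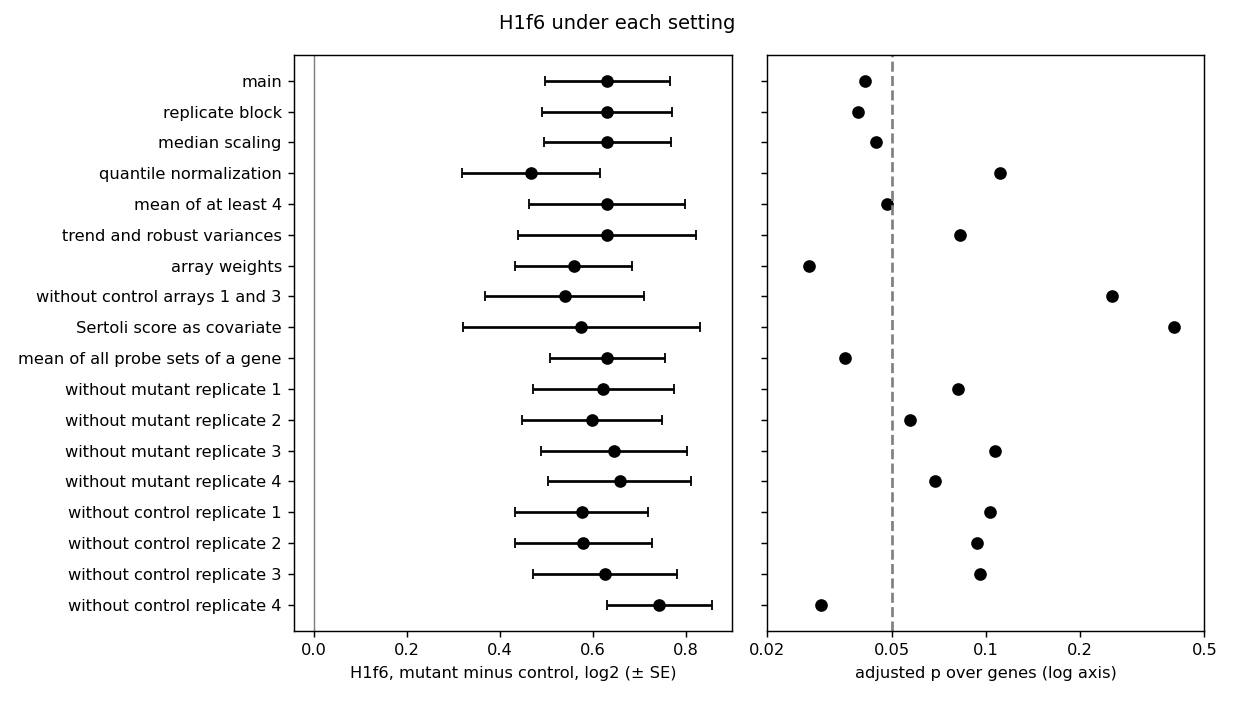
H1f6 in the fit over genes under the main setting and 17 alternatives. Left, log2 difference of mutant minus control with its standard error. Right, adjusted p on a log axis, with a dashed line at 0.05. The difference stays between 0.47 and 0.74, while the adjusted p lies on both sides of the line.

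H1f7, the spermatid variant H1T2, was read by 2 bright probe sets. By 1430181_at, mutant arrays 1 to 4 read 13.67, 13.19, 13.19 and 13.42, and control arrays 13.20, 13.36, 12.81 and 13.16. By 1441954_s_at the mutant arrays read 13.74, 13.00, 13.27 and 13.21, and the control arrays 13.28, 13.19, 12.75 and 12.88. Mutant array 1 was the highest and control array 3 the lowest by both, and the groups overlapped. The 2 probe sets moved alike, with a root mean square difference of 0.14 over the 8 arrays after centring each on its own mean. The log2 differences were 0.24 (SE 0.16, adjusted p = 0.55) and 0.28 (SE 0.18, adjusted p = 0.54). The 95% intervals of the fold were 0.92 to 1.51 and 0.91 to 1.62. Without mutant array 1 the differences were 0.13 and 0.13, and without control array 3 they were 0.13 and 0.19. Without both control arrays 1 and 3 they were 0.11 and 0.27.

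Hils1, the linker-histone-like gene of spermatids, read 14.62, 14.20, 14.10 and 14.16 on the mutant arrays and 14.23, 14.14, 13.95 and 14.06 on the control arrays. The groups overlapped, and mutant array 1 stood above the rest. The difference was 0.18 (SE 0.13, adjusted p = 0.61), a 1.13-fold higher mean with a 95% interval of 0.915 to 1.39. Without mutant array 1 the difference was 0.06. The mutant array was higher in 4 of 4 pairs, by 0.39, 0.06, 0.15 and 0.10, and with the block the adjusted p was 0.39. Both spermatid variants thus had intervals that include 1.

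The somatic gene H1f2 gave a mixed picture among its 3 probe sets, all near or below the array medians. By 1416101_a_at, mutant arrays 1 to 4 read 3.57, 2.89, 3.35 and 2.95 and control arrays 2.64, 2.31, 2.80 and 2.70. The groups did not overlap. The difference was 0.58 (SE 0.18), or 1.49-fold with a 95% interval of 1.13 to 1.98, and the adjusted p was 0.17, or 0.052 with the block. By 1436994_a_at, mutant arrays read 3.82, 2.62, 3.93 and 3.21, control arrays 2.20, 3.03, 2.77 and 3.15, and the groups overlapped (difference 0.61, SE 0.32, adjusted p = 0.42). Without control arrays 1 and 3 these differences were 0.69 and 0.30. Mutant arrays 1 and 3 were the highest by both of these probe sets. By 1438204_at all 8 arrays lay between 2.59 and 2.86, and the difference had the opposite sign (-0.17, SE 0.09, adjusted p = 0.41). Groups did not overlap for 2 of the 10 members, H1f6 and H1f2 by 1416101_a_at, beside 9.48% of all probe sets. Both were higher in mutant arrays, as 4.73% of all probe sets were.

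H1f4, the other somatic member, read 2.63 to 2.89 on mutant and 2.66 to 2.98 on control arrays, ranges that nearly coincide. Its difference was -0.08 (SE 0.11, adjusted p = 0.78), and -0.17 (SE 0.13) without control arrays 1 and 3. Linker histone genes of the chromosome 13 cluster are close in coding sequence and their replication-dependent transcripts end in a stem-loop in place of a poly(A) tail. The primer used for labelling is not given in the sources used here. How far these probe sets tell the cluster genes apart was not tested.

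H1f10, the divergent variant of many tissues, read 7.19, 8.06, 8.48 and 8.36 on mutant and 8.12, 7.94, 8.76 and 8.41 on control arrays. Mutant array 1 was the lowest, and the other mutant arrays lay within the control range. The difference was -0.29 (SE 0.29, adjusted p = 0.72), with a 95% interval of the fold from 0.52 to 1.30. Without mutant array 1 it was -0.01, and without control arrays 1 and 3 it was -0.15. H1f8, the oocyte variant, read 2.80 to 3.15 on mutant and 3.05 to 3.21 on control arrays, at the level of the array medians, with a difference of -0.09 (SE 0.11, adjusted p = 0.77).

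**Figure D3:**
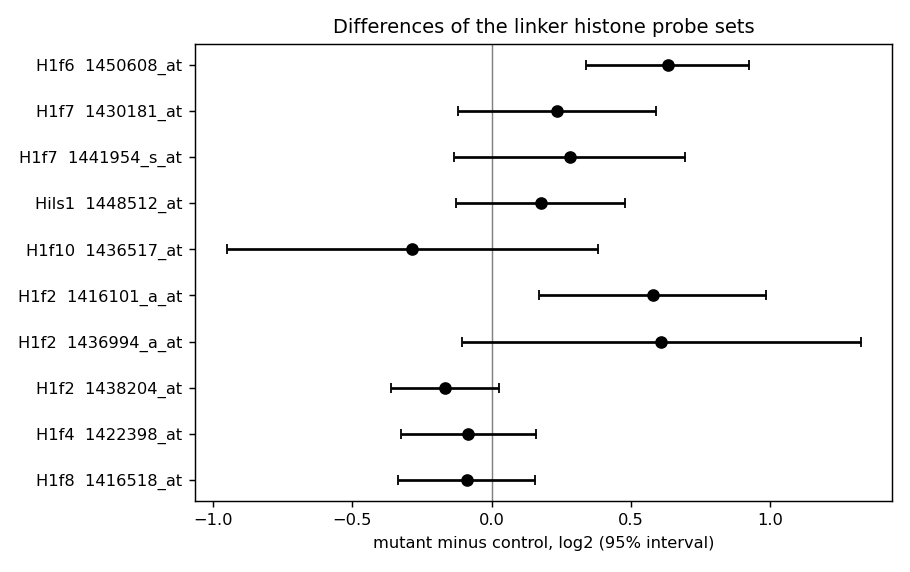
Log2 difference of mutant minus control for each linker histone probe set, with the 95% interval of the moderated model (n = 4 arrays per group). The intervals of H1f6 (0.34 to 0.92) and of H1f2 by 1416101_a_at (0.17 to 0.98) lie above 0 before adjustment for multiple tests, and the other 8 include 0.

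Markers of Sertoli cells, the somatic support cells of the tubule, were higher in the mutant arrays. In the fit over genes 6 of 22 measured markers rose (Vim, Cldn11, Fabp5, Defb19, Aard and Cst12) and 0 fell, where 1.86% of all genes rose. The median log2 difference was 1.56 beside -0.02 over all genes. With the replicate block 12 rose, against 6.6% of all genes. The count was 14 without mutant array 2, 0 without mutant array 3, and 1 or 2 without any other single array. The list holds genes already known to differ in these data. Averaged over the list, mutant arrays 1 to 4 read 7.04, 5.68, 7.25 and 6.80. Control arrays 1 to 4 read 4.74, 4.95, 5.60 and 5.47, so that no control array reached the lowest mutant array. Other listed markers differed among themselves. Wt1 read 5.10 in mutant and 3.95 in control arrays (limma adjusted p = 0.090, and 0.043 with the block), and Sox9 3.80 in both. Amh read 1.95 and 1.97, below the array medians and too dim to tell the groups apart. No marker is at 0 on this scale. Without control arrays 1 and 3, 0 of the 22 passed, at a median of 1.45.

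H1f6 and H1f2 were set beside that mean. The mutant array with the lowest Sertoli marker mean, array 2, had the highest H1f6 value, and with the mean as a covariate the H1f6 difference was 0.58 (SE 0.26, adjusted p = 0.40 over genes). For H1f2, mutant arrays 1 and 3 had both the highest marker means and the highest values of 1416101_a_at, whose difference went from 0.58 to 0.08 (SE 0.27) with the covariate. That of 1436994_a_at went from 0.61 to -0.54 (SE 0.35). Among control arrays, arrays 3 and 4 had higher marker means than arrays 1 and 2, and higher values of both H1f6 and 1416101_a_at. Differences at an equal marker mean are extrapolated, as every mutant array had a higher mean than every control array. The part of Sertoli cells in these results was not tested further.

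**Figure D4:**
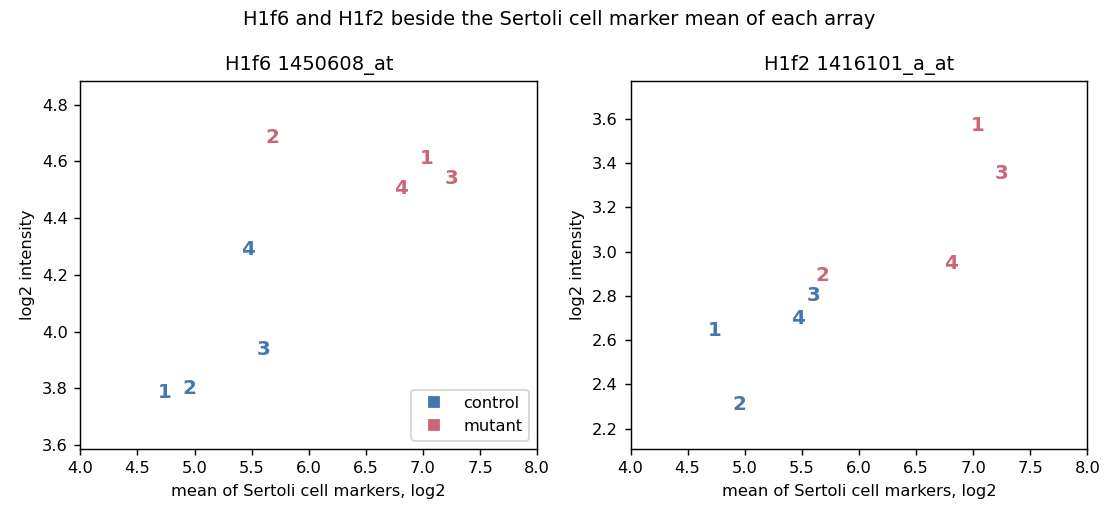
Log2 intensity of H1f6 (left) and of H1f2 by 1416101_a_at (right) against the mean log2 intensity of 22 Sertoli cell markers on the same array. Numerals are replicate numbers, control in blue and mutant in red. Mutant array 2, at a marker mean of 5.68, has the highest H1f6 value (4.68) and the lowest H1f2 value among mutant arrays (2.89).

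Spermatocytes are the cells in which H1f6 is normally switched on. Of 20 spermatocyte markers 0 passed in limma over genes, but 8 had an unadjusted p under 0.05, where 20.2% of all genes did. The median difference was 0.04, with 12 of the 20 higher and 8 lower in mutant arrays. Several of these transcripts read bright in the purified round spermatids, such as Ldhc (14.55 in mutant and 14.56 in control arrays) and Pgk2 (14.2 in both). The list median may therefore not follow the number of spermatocytes. With the replicate block 4 rose and 1 fell, against 6.6% and 4.94% of all genes. The 4 were Sycp3, a protein of the meiotic chromosome axis (log2 difference 0.99), Hormad1, another axis protein (1.09), Spo11, which makes meiotic DNA breaks (0.89), and Tex101 (2.83-fold higher). The one that fell was Rec8, a meiotic cohesin (-0.67). Averaged over the 20 markers, mutant arrays 1 to 4 read 10.69, 10.81, 10.21 and 10.06 and control arrays 10.32, 10.25, 9.99 and 10.06. Mutant array 2 was the highest and mutant array 4 the lowest mutant array in both this mean and H1f6. Among control arrays the order differed: array 1 had the highest marker mean (10.32) and the lowest H1f6 value (3.79). The groups overlapped in this mean but not in H1f6. The part of spermatocytes in the H1f6 difference was not tested.

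Of 14 spermatogonia markers Etv5 rose and Dnmt3l fell, against 3.71% of all genes in either direction. An unadjusted p under 0.05 was found for 7, against 20.2% of all genes, and the median was 0.38. With the block Stra8, Dmrt1 and Uchl1 also rose, by 1.53, 1.38 and 1.57, where 6.6% of all genes rose. Of 7 Leydig cell markers only Aldh1a1 rose, and of 15 peritubular, vascular and blood cell markers only Lum, at medians of 0.21 and 0.04. None of the Leydig cell markers had a control mean of at least 5. Star, Cyp11a1, Cyp17a1, Hsd3b1 and Hsd17b3 did not pass, and 1 of the 7, Cyp11a1, was lower in mutant arrays (-0.33). Without control arrays 1 and 3 none of Etv5, Dnmt3l, Aldh1a1 and Lum passed (adjusted p = 0.25, 0.17, 0.15 and 0.22). By the mean of its probe sets the Etv5 difference went from 1.28 to 0.55 (adjusted p = 0.072). Of 14 markers of elongating spermatids 0 passed with or without the block and 1 had an unadjusted p under 0.05, at a median of 0.01. These transcripts were already bright in the purified round spermatids, with a list mean of 14.36 in mutant and 14.35 in control arrays. The list therefore cannot show how many elongating cells were present. The part of these cells in the linker histone differences was not tested.

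Genes related to linker histones, to spermatid condensation or to histone gene expression were taken from 5 lists of 61 measured genes outside the family. Of these, 4 rose and 1 fell in limma over genes, against 3.71% of all genes that passed in either direction. Those that rose were Aurkb, a modifier, and Yy1, Slbp and Sp3, of histone gene expression. The one that fell was Brdt, the mutated gene itself. With the replicate block 15 rose and 3 fell, where 11.5% of all genes passed in either direction. An unadjusted p under 0.05 was found for 20.2% of all genes. Without control arrays 1 and 3, 1 passed, Nfyc, a CCAAT-box-binding subunit, and with the Sertoli marker mean as a covariate 0 did.

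Of 13 measured chaperones and importers of linker histones 0 passed, 4 had an unadjusted p under 0.05, and the median log2 difference was 0.08. With the block 2 rose and 1 fell, and these were named after their values were seen. Nasp, a chaperone that binds linker histones, read 13.23 in mutant and 13.73 in control arrays (difference -0.50, SE 0.12, adjusted p = 0.059, and 0.041 with the block). By the mean of its probe sets the Nasp difference was -0.09, and that of Ipo7, named next, 0.36. Ipo7, an importin that carries H1 into the nucleus, had a difference of 1.18 (adjusted p = 0.057, and 0.036 with the block), and the acidic nuclear protein gene Anp32b one of 1.28 (0.067 and 0.020). Npm1, Set, Nap1l1 and Kpnb1 had differences of 0.19, 0.08, 0.09 and 0.07.

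Of 11 kinases and other modifiers of linker histones Aurkb, the mitotic and meiotic kinase Aurora B, rose, and 0 fell. Aurkb read 6.16 in mutant and 4.85 in control arrays (2.49-fold, adjusted p = 0.023), and passed in 4 of 8 fits without 1 array (adjusted p up to 0.067). By the mean of its probe sets the Aurkb difference was 0.84 (adjusted p = 0.055). The list median was 0.13. With the block Cdk2, a kinase that phosphorylates H1, and the deacetylase gene Sirt1 also rose, by 1.68 and 1.42, and Prkdc fell, by 0.78. By the mean of its probe sets the Cdk2 difference was 0.68 (adjusted p = 0.15). Without the block Cdk2, Sirt1 and Prkdc had adjusted p of 0.090, 0.088 and 0.52.

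High mobility group proteins, which compete with linker histones for nucleosomes, had the highest median of these 5 lists, 0.80 over 7 measured genes. Without the block 0 passed, with 4 at an unadjusted p under 0.05, against 20.2% of all genes. With the block 4 rose, where 6.6% of all genes did: Hmgb2 (1.58), Hmgb3 (1.97), Hmgn1 (0.80) and Hmgn5 (1.16). Their adjusted p (limma) was 0.029, 0.038, 0.029 and 0.044. By the mean of its probe sets the Hmgb2 difference was 0.97. With the Sertoli marker mean as a covariate the Hmgb3 difference was -0.76, the Hmgn5 difference -0.59, and the list median -0.05. Hmgb2 and Hmgn1 kept their direction in all 17 alternatives, this covariate included, with lowest differences of 0.97 and 0.22. The germ-cell member Hmgb4 read 14.36 in mutant and 14.12 in control arrays, with an adjusted p of 0.51.

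Of 14 measured genes of spermatid nuclear condensation, a list that also holds H1f7 and Hils1, Brdt fell and 0 rose, at a median of 0.11. The transition proteins and protamines, which take the place of histones, had log2 differences of 0.07 (Tnp1), 0.16 (Tnp2), 0.26 (Prm1) and -0.06 (Prm2), with adjusted p from 0.36 to 0.86. The signs of Tnp1 and Prm2 turned when single arrays were left out. Brdt passed in all 8 fits without 1 array (adjusted p up to 0.032), and its difference was -1.41 by its brightest probe set and -0.76 by the mean of its probe sets. Of this list 0 genes, and so not Brdt either, passed without control arrays 1 and 3.

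Of 18 genes of histone gene transcription and histone mRNA 3′ ends 3 rose and 0 fell, at a median of 0.19. With the block 6 rose, the others being Casp8ap2 (0.95), Sp1 (1.67) and Nfyc (1.04). Yy1, a zinc-finger transcription factor, read 9.02 in mutant and 7.05 in control arrays (3.92-fold, adjusted p = 0.0065) and passed in all 8 fits without 1 array. The Yy1 difference was 1.97 by its brightest probe set and 0.59 by the mean of its probe sets. Slbp, which binds the stem-loop of histone mRNA, was 2.84-fold higher (adjusted p = 0.038) and passed in 2 of those 8 fits (adjusted p up to 0.11), as did Sp3, a GC-box-binding factor, in 1 (1.86-fold, adjusted p = 0.039, up to 0.10). By the mean of its probe sets the Slbp difference was 0.51 (adjusted p = 0.13). The promoters of H1f6, H1f2, H1f4 and H1f8 hold CCAAT boxes, and of these H1f4 and H1f8 had differences of -0.08 and -0.09. The subunits of the factor that binds this box, Nfya, Nfyb and Nfyc, had differences of 0.58, 0.31 and 1.04. Their adjusted p (limma) was 0.41, 0.35 and 0.17. With the block it was 0.18, 0.22 and 0.033, so that Nfyc passed. Any link of this factor to the linker histone differences was not tested.

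The genes whose values ran closest to each bright member over the 8 arrays were found by the root mean square difference of centred log2 values, among 7452 other genes with a mean of at least 5. For Hils1 they were Gtsf1l (0.029), Fam71e1 (0.031) and the core histone gene H2ac19 (0.038), against a median of 0.37 over all candidates. For H1f7 they were Abhd5 (0.065), Slain2 (0.071) and Mfsd13b (0.079), against 0.40. For H1f10 they were Zfp688 (0.14), Fkbp8 (0.15) and Thop1 (0.18), against 0.62. None of these 9 genes passed the test between groups, where the lowest adjusted p was 0.32, for Mfsd13b. They were chosen for likeness to members that did not pass, so this adds no separate result. H1f6 was too dim for this comparison.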

How the data were processed

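Each of 8 arrays measured total RNA of pooled round spermatids, with biotin-labelled cRNA made from 2 µg of RNA. As deposited by the authors, each probe set has a log2 intensity. The submitters' processing notes name GCRMA and limma without versions or roles. GCRMA can compress dim values and so understate changes of weak genes, which was not tested here. Arrays have no sequencing depth, and their number limits the precision. The 64 control probe sets were left out of the 45101. Of the others, 34945 carry 1 gene in the platform annotation, 932 several and 9160 none, and 34741 of the single-gene ones were given current symbols by Entrez identifier through a GRCm38.p6 gene table. Groups and replicate numbers came from sample titles.

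Differences between the groups were fitted in limma 3.58.1 (R 4.3.3; group as the only term, two-sided, Benjamini-Hochberg adjustment over all features, threshold 0.05), over 45037 probe sets and over 18193 genes by their probe set with the highest mean. "Rose" and "fell" mean an adjusted p under 0.05. The script was tested on simulated data. Arrays of the same number in the 2 groups deviated together (r of deviations from group means 0.36, 0.42, 0.50 and 0.41 over genes). The other 12 combinations had r under 0, which the subtraction of group means itself favours. Values with the number as a block are therefore given where they change a call. That pairing comes from these correlations, since no source says what the number marks. Without the block, p-values measure the spread between arrays of a group. Each array is a pool of animals, and this spread also holds whatever the number marks. With the block they measure the spread of the differences between arrays of the same number.

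The named genes are those of all linker histone probe sets, up to 6 genes of each related list past the threshold, Brdt, Prm1, Prm2, Tnp1 and Tnp2, and 3 similar genes for each bright member. Other list genes were named after their values were seen. Members, lists and rules were chosen with earlier results of these data known. Alternatives were the replicate block, 2 rescalings, a minimum mean of 4, other variance models, array weights, leaving out arrays, the Sertoli marker mean as a covariate, and the mean of a gene's probe sets.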

Additional observations from a re-analysis of the deposited data

Results flagged for a closer look

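The value of H1f8 on mutant array 1, 2.80, stood apart from the other mutant arrays, which lay between 3.11 and 3.15. Its gap to the nearest of them was above Dixon's 95% critical value for 4 samples. It was the 1 such value among 20 groups tested, and chance flags about 1 in 20. H1f8 reads at the array median, and its difference without that array was -0.01.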

How the results depend on the processing

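H1f6, H1f7, Hils1, H1f10, H1f4 and H1f8 kept their direction in all alternatives run, as did H1f2 by 1416101_a_at and 1438204_at. H1f2 by 1436994_a_at reversed to -0.54 with the Sertoli marker mean as a covariate, as did Hmgb3 (-0.76), Hmgn5 (-0.59) and Prm2 (0.11), and without 1 array Prm2 ranged from -0.15 to 0.0087 and Tnp1 from -0.0098 to 0.12, with Prm2 turning without mutant array 3, and Tnp1 without control array 3 and without mutant array 1 (-0.0016). Among linker histone probe sets 1 passed with the replicate block, with array weights and without control array 4 (range without 1 array 0 to 1). Among linker histone genes 0 passed after quantile normalization, with trended robust variances, without control arrays 1 and 3 and with the Sertoli covariate (range without 1 array 0 to 1).

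All probe sets that passed numbered 639, and 2894 with the replicate block, 993 after quantile normalization, 1339 with array weights, 35 without control arrays 1 and 3, 2 with the covariate and 189 to 1323 without 1 array. All genes numbered 675, and 2100, 1040, 1655, 68, 1 and 199 to 1131. The 5 related genes that passed became 18 with the block, 8 with trended variances, 12 with weights, 1 without control arrays 1 and 3, 0 with the covariate, 3 by the mean of probe sets and 2 to 8 without 1 array. These counts of related genes were added after seeing the data. The cause was not tested. Signal over background limits H1f2, H1f4, H1f6 and H1f8, which read near the array median.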

Other observations

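Promoters of the 4 linker histone genes without a probe set of their own here were searched in the same 130-base windows. Those of H1f3 and H1f5 held the H1 box, the CCAAT box and the TATA box, like H1f2, H1f4 and H1f6, which makes 5 of 11 linker histone promoters with all 3. The window of H1f1 held the CCAAT and TATA boxes and that of H1f0 none. Among the other measured genes, the window of H1f8 held the CCAAT box alone, in 2 copies on the opposite strand, and that of H1f10 held none.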
